A study of Mus musculus with 11 samples.

Results

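The cytosolic ribosomal protein genes encode the protein subunits of the ribosomes that translate nuclear messages. They were taken as all probes whose RefSeq accession gives a symbol of the form Rpl or Rps followed by a number (with an optional final a, x or l), together with Rplp0, Rplp1, Rplp2 and Rpsa. Pseudogenes and the S6 kinases were left out. This gave 81 genes with 168 probes, among 20972 gene symbols and 55681 probes on the array, namely 49 genes of the large subunit and 32 of the small subunit. Of these, 79 genes with 166 probes were above background on at least 3 arrays and were tested, 48 of the large and 31 of the small subunit.

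A ribosome holds 1 copy of almost every ribosomal protein beside its ribosomal RNA. The small subunit reads the message and the large subunit joins amino acids and releases the chain through an exit tunnel. The messages for these proteins are among the most abundant in growing cells, and many start with a terminal oligopyrimidine (TOP) tract through which the kinase complex mTORC1 and the protein LARP1 control their translation. Unassembled RPL5 and RPL11, carried with 5S ribosomal RNA, bind MDM2 and so stabilise p53. Inherited loss of 1 copy of several of these genes causes Diamond-Blackfan anaemia, a failure of red cell production.

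The cells were L-GMP lines, leukaemic granulocyte-macrophage progenitors that carry the fusion oncogene MLL-AF9, derived from diseased C57BL/6 mice. All arrays came from cells with floxed alleles of Jmjd2a, Jmjd2b and Jmjd2c (f/f, now named Kdm4a, Kdm4b and Kdm4c) and the tamoxifen-inducible recombinase Rosa26::CreERT2, driven from the broadly active Rosa26 locus, grown in RPMI with 20% FBS and 10 ng/ml IL-3. RNA was labelled with Cy3 and hybridised to 11 one-colour Agilent arrays, 4 from cells before 4-hydroxytamoxifen (OHT) at 0 h, 4 from cells at 48 h in 500 nM OHT and 3 from cells at 96 h in OHT. Loss of the 3 demethylases, exposure to OHT, activity of the recombinase and time in culture cannot be told apart, because cells without floxed alleles and cells kept without OHT for 48 h or 96 h were not analysed here.

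Values are the scaled log2 signal, in which an array's 75th percentile was taken away from log2 of its processed signal, and differences between times are on the log2 scale with limma's SE. A gene was called at a Benjamini-Hochberg adjusted p under 0.05 over 25079 features (limma). The deleted genes checked the labels: the Kdm4c probe A_55_P2053206 kept 3.24% of its 0 h signal at 48 h and 4.15% at 96 h, and the Kdm4b probe A_55_P2028064 kept 10.2% at 48 h and 10.5% at 96 h. The brighter Kdm4a probe A_52_P281209 kept 33.2% at 48 h and 43.5% at 96 h, and its dimmer probe A_55_P1982585 kept 85.3% at 48 h (adjusted p = 0.593 over single probes, limma) and 36.3% at 96 h. The 75th percentile of processed signal was 149.16 to 203.83 intensity units at 0 h, 108.4 to 147.44 at 48 h and 228.95 to 293.89 at 96 h. The share of spots well above background ran between 50.2% and 75.8% over the 11 arrays, with the highest share in 96 h replicate 1. All 0 h and 48 h arrays lay on slide 1 and all 96 h arrays on slide 2, so slide and the 96 h time cannot be told apart. Among cell type markers, 10 tested genes of granulocyte-monocyte progenitors had a summed linear scaled signal of 906 to 1160 at 0 h, 1320 to 1420 at 48 h and 1250 to 1310 at 96 h. These genes did not move together. Against 0 h, 6 were positive and 4 negative at 48 h, with 2 called higher and 2 lower (10.5% and 8.03% of all features). At 96 h 5 were positive and 5 negative, with 2 called higher and 0 lower (6.18% and 3.38%). The summed linear scaled signal of 11 tested mature neutrophil genes was 164 to 712 at 0 h, 297 to 735 at 48 h and 915 to 1590 at 96 h. Against 0 h, 9 of them were positive and 2 called higher at 48 h, and 11 were positive and 4 called higher at 96 h. None was called lower. The part of these marker genes in the ribosomal protein values was not tested.

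Promoter stretches are shown for the 3 members called at 48 h and for Rplp0, the first marker of the family, to set the members that were called beside a common motif of ribosomal protein promoters. They were taken from RefSeq on GRCm38.p6, from 80 bases before the annotated start to 20 bases after it, 5′ to 3′. Capitals mark CCGGAAG on either strand, a core that ETS family factors such as GABP bind. The stretches lie at chr9:66946006-66946105 (plus strand, the first of 2 listed starts) for Rps27l, at chr10:128549149-128549248 (minus strand) for Rpl41, at chr1:72711180-72711279 (plus strand) for Rpl37a and at chr5:115559387-115559486 (plus strand) for Rplp0.
Rps27l: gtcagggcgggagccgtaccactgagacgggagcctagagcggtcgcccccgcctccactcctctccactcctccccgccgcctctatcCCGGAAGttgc
Rpl41: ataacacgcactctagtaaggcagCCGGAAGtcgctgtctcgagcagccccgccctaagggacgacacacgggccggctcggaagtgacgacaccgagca
Rpl37a: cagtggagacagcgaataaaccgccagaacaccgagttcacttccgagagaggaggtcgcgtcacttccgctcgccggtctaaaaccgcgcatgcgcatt
Rplp0: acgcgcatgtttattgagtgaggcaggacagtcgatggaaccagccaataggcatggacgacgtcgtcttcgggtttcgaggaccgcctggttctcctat

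A promoter was listed for 60 of the 81 genes and for 27025 genes in all. In the window from −250 to 50 bases around the start, CCGGAAG (both strands) stood in 24 members, or 40%, against 9.93% of all genes. The pyrimidine run CTTTCC, searched on the sense strand from 20 bases before to 50 after the start, stood in 18 members, or 30.0%, against 3.79% of all genes. TATAAA (both strands), the letters of the TATA box, stood in 7 members, or 11.7%, against 15.7% of all genes. CACGTG, the E-box letters that MYC and MAX bind, stood in 6 members, or 10.0%, against 8.09% of all genes. No motif contains another, and a match describes letters, not binding.

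At 48 h against 0 h, 3 members were called higher and 0 lower at the 75th percentile scaling, while 10.5% of all 25079 features were called higher and 8.03% lower. At an unadjusted p under 0.05, 18 of 79 members passed, where 34.7% of all features did. In addition, 14 of 79 were higher at 48 h without overlap, where 14.1% of all features were. The median difference over the 79 members was 0.17, against 0.12 over all features. The 3 called genes were Rps27l (0.43 ± 0.10, adjusted p = 0.0175), Rpl41 (0.37 ± 0.10, adjusted p = 0.028) and Rpl37a (0.37 ± 0.11, adjusted p = 0.0448). With replicates paired by their number in the titles, Rps27l remained called (adjusted p = 0.0477), while Rpl41 (adjusted p = 0.0645) and Rpl37a (adjusted p = 0.071) did not. Paired by the number in the array file names, 7 members were called higher, where 12.2% of all features were.

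Rps27l is a paralog of Rps27, and in human cells its gene is a p53 target. Its scaled log2 signal (A_51_P246903) was 8.03, 7.69, 7.99 and 7.98 at 48 h, against 7.40, 7.56, 7.53 and 7.48 at 0 h. Every 48 h array lay above every 0 h array, with 48 h replicate 2 nearest to them. At 96 h it was 7.54, 7.64 and 7.44, which overlapped the 0 h arrays and lay below all 48 h arrays. Rps27l was called higher at 48 h in 4 of 7 scalings between arrays and was positive in 6 of 7, the exception being the scaling to spike-in controls (−0.13, adjusted p = 0.611). It missed the threshold without 48 h replicate 1 (adjusted p = 0.0505) or 48 h replicate 4 (adjusted p = 0.0515).

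Rpl41 encodes a very short and basic peptide of the large subunit. Its signal was 10.26, 9.98, 10.26 and 10.28 at 48 h, against 9.76, 9.83, 9.93 and 9.79 at 0 h, without overlap. Rpl37a, a zinc finger protein of the large subunit, read 10.26, 10.20, 10.47 and 10.44 at 48 h, against 9.89, 9.89, 10.18 and 9.89 at 0 h. The lowest 48 h array of Rpl37a was just above 0 h replicate 3, the highest 0 h array. Both genes were called at 48 h in 2 of 7 scalings and were negative with spike-in scaling (−0.19 for each).

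**Figure D1:**
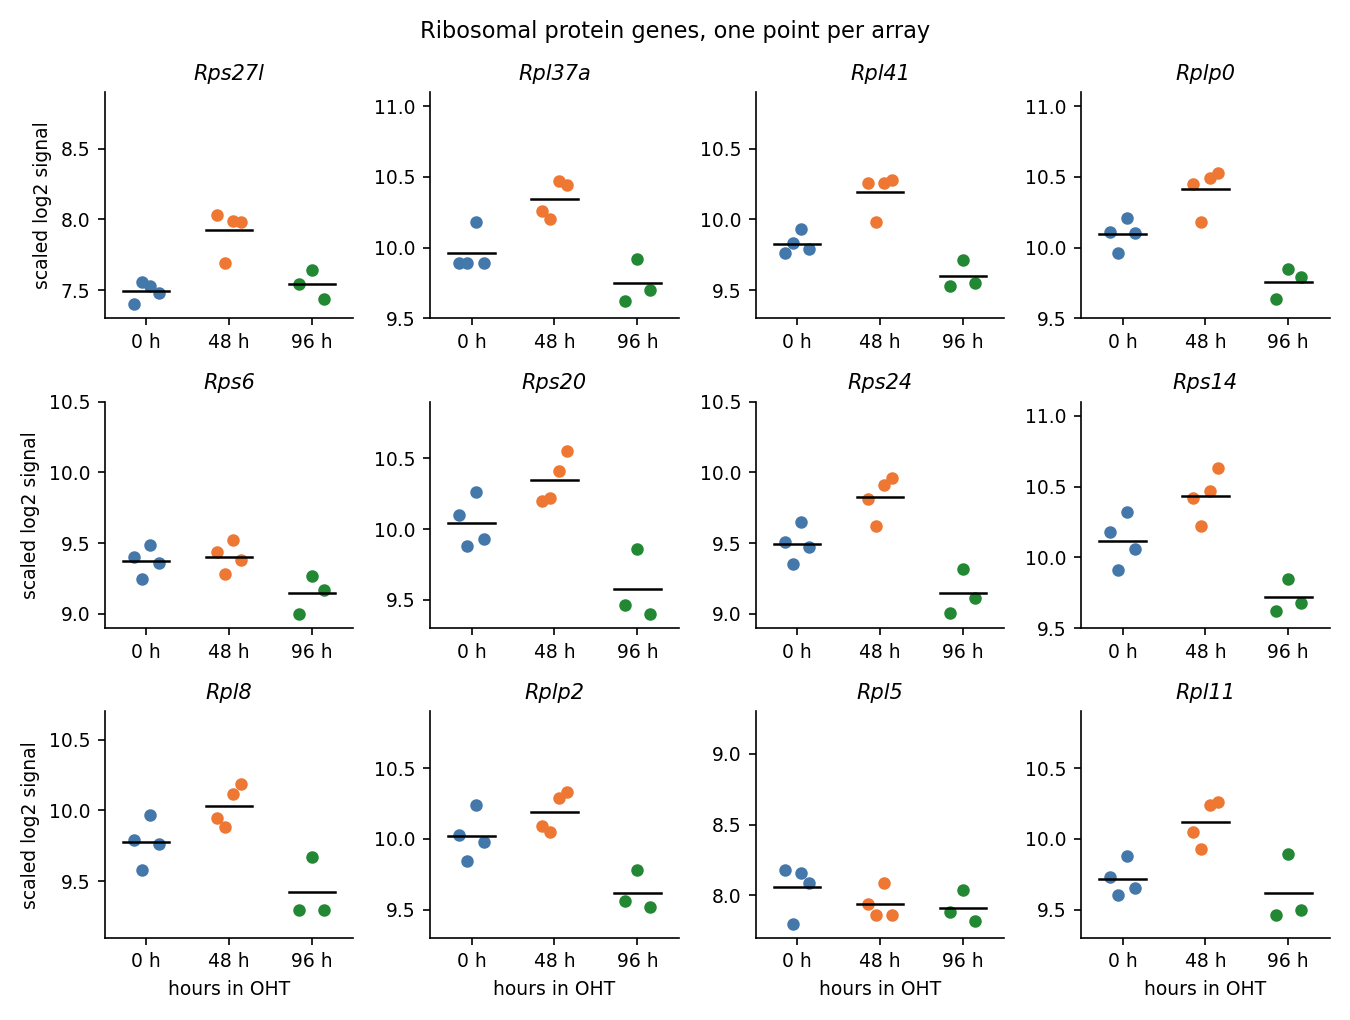
Scaled log2 signal (75th percentile scaling) of 12 ribosomal protein genes against hours in OHT, with 1 point per array (4 at 0 h, 4 at 48 h, 3 at 96 h) and the group mean as a line; each panel spans the same number of log2 units. In Rps27l, Rpl37a and Rpl41 every 48 h point lies above every 0 h point, while Rps20, Rps14 and Rplp0 have their 96 h points below their 48 h points, an order that turns round with spike-in scaling.

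At 96 h against 0 h, 0 members were called higher and 0 lower by limma at the 75th percentile scaling, with 29 at an unadjusted p under 0.05, where 28.5% of all features passed. Of all features, 6.18% were called higher and 3.38% lower. The median difference over members was −0.23, against 0.11 over all features, and 75 of 79 members were negative at this scaling. Without overlap, 14 members were lower and 2 higher at 96 h, where 8.7% of all features were lower and 16.4% higher. With replicates paired by file-name number 20 members were called lower (5.45% of all features), and with median scaling 8 (9.28%). With normexp correction and quantile normalization 5 members were called higher (Rpl11, Rpl35, Rpl37a, Rps10 and Rps16), where 5.42% of all features were. With spike-in scaling 68 were called higher, where 81.5% of all features were.

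At 96 h against 48 h, 35 members were called lower and 0 higher at the 75th percentile scaling, against 5.95% of all features lower and 5.17% higher. However, 22 were called higher and 0 lower with normexp correction and quantile normalization (7.36% of all features higher). With spike-in scaling 79 were called higher, where 92.8% of all features were. The median difference at the 75th percentile scaling was −0.39, against 0.03 over all features and −0.15 over the 2508 brightest features, which included 77 members. The called genes were 20 of 48 in the large subunit and 15 of 31 in the small subunit. The 96 h and 48 h arrays did not overlap for 54 members, all lower at 96 h, whereas 13.6% of all features were lower without overlap. With replicates paired by title number, 7 members were called lower (3.29% of all features), and paired by the number in the array file names, 50 (6.28%). Without 96 h replicate 1 the count was 4 (2.34% of all features lower), without 96 h replicate 3 it was 6 (2.97%), without 48 h replicate 4 it was 9 (3.03%), without 48 h replicate 3 it was 20 (4.49%) and without 48 h replicate 1 it was 21 (3.51%).

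Rplp0, the base of the acidic stalk that recruits elongation factors, read 9.64, 9.85 and 9.79 at 96 h, against 10.45, 10.18, 10.49 and 10.53 at 48 h (−0.65 ± 0.11, adjusted p = 0.00919). The 96 h arrays also lay below the 0 h arrays, at 10.11, 9.96, 10.21 and 10.10. The same difference was 0.01 with quantile normalization and 0.75 with spike-in scaling. Rps6, the small subunit protein that S6 kinase phosphorylates, read 9.0, 9.27 and 9.17 at 96 h, against 9.44, 9.28, 9.52 and 9.38 at 48 h. The 0 h arrays of Rps6 read 9.4, 9.25, 9.49 and 9.36. Its highest 96 h array lay just below its lowest 48 h array, and the difference at 96 h against 48 h missed the threshold (−0.26 ± 0.11, adjusted p = 0.147).

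Rps20, a small subunit head protein, had the most negative difference at this scaling. It read 9.46, 9.86 and 9.40 at 96 h, against 10.20, 10.22, 10.41 and 10.55 at 48 h (−0.77 ± 0.15, adjusted p = 0.0129), with all 96 h arrays below all 48 h arrays. Rps20 was called lower in 4 of 7 scalings and higher in 1, with spike-in controls (0.63). Rps24, mutated in Diamond-Blackfan anaemia, read 9.01, 9.32 and 9.11 at 96 h, against 9.81, 9.62, 9.91 and 9.96 at 48 h (−0.68 ± 0.12, adjusted p = 0.0103), also without overlap. Rps24 and Rps14, a protein of the small subunit platform (−0.72 ± 0.13, adjusted p = 0.011), were each called lower in 3 of 7 scalings and higher in 1. Among the other members named, Rpl8 (−0.61), Rpl9 (−0.61), Rpl6 (−0.60), Rpl41 (−0.60) and Rpl35 (−0.60) were called lower in 2 of 7 scalings each, and Rpl35 was called higher in 2. These values are those of the brightest probe. The dimmer Rps24 probes stood at −0.25 (adjusted p = 0.197) and −0.08 (adjusted p = 0.851, limma over single probes). Dimmer probes of Rpl8, Rpl9 and Rpl6 were not called lower either, whereas those of Rplp0 were.

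The direction of the whole family therefore followed the scaling between arrays, as set out side by side for 7 scalings. Medians over members at 96 h against 48 h were −0.39 with the 75th percentile of all spots, −0.42 with that percentile over probes above background on all arrays, −0.55 with the array median and −0.06 with cyclic loess. They were 0.06 with quantile normalization, 0.15 with normexp correction and quantile normalization, and 1.01 with spike-in controls, where the median of all features was itself 1.43. At 48 h against 0 h the member medians were 0.17, 0.23, −0.06, −0.07, −0.08, −0.11 and −0.40 in that order. Relative to the median of all features, the family stood at −0.43 at 96 h against 48 h under the scalings by 1 factor per array (75th percentile, median and spike-in), at −0.07 with cyclic loess, 0.06 with quantile normalization and 0.13 with normexp and quantile normalization. Scaling by 1 factor shifts members and all features alike, so the shared −0.43 was fixed in advance. No member was called in 1 direction under all 7 scalings in any comparison. The same fit on the values of the authors' deposited table gave the same member counts as normexp correction with quantile normalization in all 3 comparisons. The deposited values correlated at r = 1 with that normalization on every array, so the equal counts are not a separate check.

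The counts of called members under the other scalings are set beside the shares of all features, by limma. Scaled to the array median, 0 members were higher and 0 lower at 48 h against 0 h (1.69% and 7.7% of features), 0 and 8 at 96 h against 0 h (0.921% and 9.28%), and 0 and 2 at 96 h against 48 h (0.63% and 3.04%). With the percentile over probes detected on all arrays, the counts were 14 and 0 at 48 h against 0 h (14.5% and 6.87%), 0 and 1 at 96 h against 0 h (7.72% and 3.34%), and 0 and 48 at 96 h against 48 h (4.8% and 7.02%).

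Normalizations that depend on intensity gave few calls or calls in the opposite direction. Cyclic loess gave 1 higher and 1 lower at 48 h against 0 h (8.13% and 9.29% of 25072 features), 0 and 0 at 96 h against 0 h (4.08% and 4.47%), and 1 and 2 at 96 h against 48 h (4.84% and 5.65%). Quantile normalization gave 0 and 1 at 48 h against 0 h (7.37% and 8.78%), 0 and 0 at 96 h against 0 h (3.9% and 4.63%), and 2 and 0 at 96 h against 48 h (4.91% and 5.77%). Normexp correction with quantile normalization gave 1 and 10 at 48 h against 0 h (8.76% and 10.7%), 5 and 0 at 96 h against 0 h (5.42% and 5.11%), and 22 and 0 at 96 h against 48 h (7.36% and 6.02%). Under spike-in scaling most of the array moved with the family: 0 and 13 members were called at 48 h against 0 h (0.897% and 31.3%), 68 and 0 at 96 h against 0 h (81.5% and 0.307%), and 79 and 0 at 96 h against 48 h (92.8% and 0.0917%).

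Pairing replicates changed the counts at the 75th percentile scaling, not the medians' direction. The file-name number equals the array's column on its slide, so pairing by it cannot be told apart from a term for slide column. By title number, 1 member was higher and 0 lower at 48 h against 0 h (9.15% and 6.73% of features), 0 and 0 at 96 h against 0 h (4.16% and 1.76%), and 0 and 7 at 96 h against 48 h (3.09% and 3.29%). By file-name number, the counts were 7 and 0 at 48 h against 0 h (12.2% and 9.23%), 0 and 20 at 96 h against 0 h (8.56% and 5.45%), and 0 and 50 at 96 h against 48 h (5.89% and 6.28%).

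**Figure D2:**
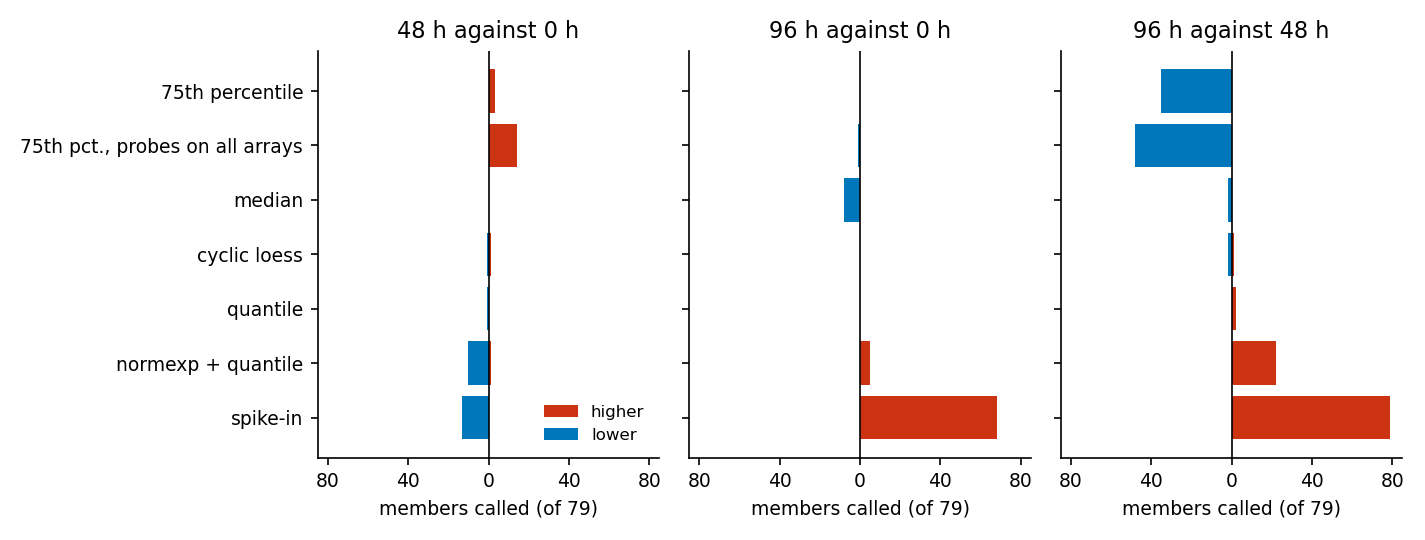
Number of the 79 tested ribosomal protein genes called higher (right, red) or lower (left, blue) by limma at an adjusted p under 0.05 in each comparison, for 7 scalings between arrays from top to bottom. At 96 h against 48 h the count goes from 35 lower with the 75th percentile to 22 higher with normexp and quantile normalization and 79 higher with spike-in controls. Of all features, 5.95% were lower, 7.36% higher and 92.8% higher in these fits, in that order.

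On the scaled values, the spike-in controls, RNA added at the labelling step in fixed amounts, moved in the same direction as the family. The same array percentile was taken from both readings, and it was lowest at 48 h and highest at 96 h. Their shared direction therefore cannot be told apart from an effect of that scaling. The difference between them does not depend on it. The mean scaled signal of 8 spike-in probes was 4.81 ± 0.23 at 0 h, 5.37 ± 0.18 at 48 h and 3.97 ± 0.20 at 96 h (SD, n = 4, 4 and 3). The family median was 9.36 ± 0.10 at 0 h, 9.52 ± 0.13 at 48 h and 9.08 ± 0.18 at 96 h. Family median minus spike-in mean was 4.55 ± 0.23 at 0 h, 4.14 ± 0.27 at 48 h and 5.10 ± 0.08 at 96 h. The 3 readings had 48 h highest for the first and second and lowest for the third. The amount of RNA per cell was not measured, so a change in RNA per cell and a change in the share of the message pool cannot be told apart.

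**Figure D3:**
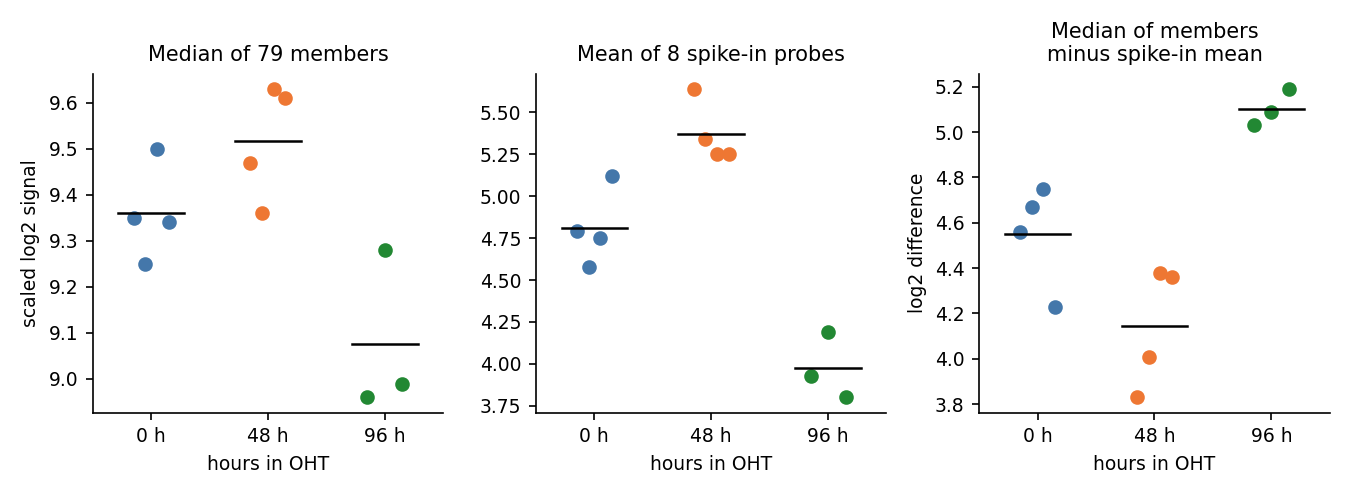
Median scaled log2 signal of the 79 tested ribosomal protein genes (left), mean of 8 spike-in probes (middle) and the difference between them (right) against hours in OHT, with 1 point per array and the group mean as a line. The family median and the spike-in mean are both lowest at 96 h (9.08 and 3.97), and their difference is highest there (5.10). Both have the same array percentile taken away, and their difference does not depend on it.

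The size of the difference also went with the brightness of the probe. Among the 77 bright members, the 26 dimmest had a median of −0.24 at 96 h against 48 h with 2 called lower, the middle 25 had −0.41 with 10 and the 26 brightest had −0.56 with 23, at the 75th percentile scaling. Pearson's r between a member's mean signal and this difference was −0.78 over 77 members, a description across genes that share the same arrays. At 48 h against 0 h it was 0.51. The 2508 brightest of all features, 77 members among them, had medians of 0.13 at 48 h and −0.06 at 96 h against 0 h. Their median was −0.15 at 96 h against 48 h. The brightest percent of all features, members included, had a median signal of 9.5 at 0 h, 9.76 at 48 h and 9.24 at 96 h. Whether members differ from other features of like brightness was not tested.

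Probes of 1 gene gave the same contrast at the 75th percentile scaling. Of the 52 members with several kept probes, the brightest probe was more negative than the dimmest at 96 h against 48 h in 45, with medians of −0.38 for the brightest and −0.18 for the dimmest probes. At 48 h against 0 h the brightest probe was the higher in 40 of 52, with medians of 0.17 and 0.08. Over 166 single probes, 1 was called higher and 45 lower at 96 h against 48 h, where 9.78% of all 34270 probes were called in either direction. No member had probes called in opposite directions.

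**Figure D4:**
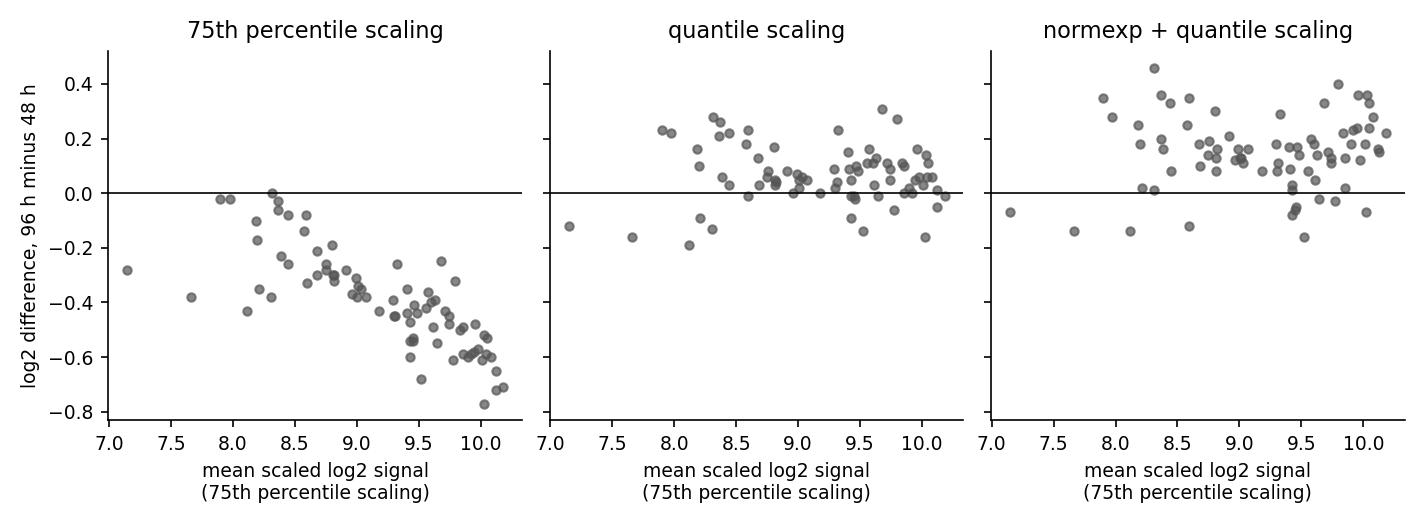
Log2 difference at 96 h minus 48 h of 77 bright ribosomal protein genes against their mean scaled log2 signal, with 1 point per gene, for 3 scalings. With the 75th percentile the brightest genes are the most negative (median −0.56 in the 26 brightest and −0.24 in the 26 dimmest), and with quantile normalization, with or without normexp correction, most genes lie at or above 0.

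Levels were also taken relative to the family. Less the family median of the same array, Rpl5, a large subunit protein that binds 5S ribosomal RNA, lay at −1.53, −1.5, −1.54 and −1.75 at 48 h, against −1.17, −1.45, −1.34 and −1.25 at 0 h. The 48 h arrays were all below the 0 h arrays. At 96 h it lay at −1.08, −1.23 and −1.17, above all 48 h arrays and overlapping the 0 h arrays. Genes called only relative to the family are named after their values were seen.

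With every array centred on the family median, 10 members were called higher and 2 lower at 96 h against 48 h. The higher ones included Rpl5 (0.42, adjusted p = 0.0159), Rpl21, Rpl28, Rpl36a, Rpl17, Rpl23a, Rps4x, Rps18 and Rpl18, and the lower ones Rps14 (−0.28, adjusted p = 0.0486) and Rps20 (−0.33, adjusted p = 0.0286). All 10 were among the 26 dimmest of the 77 bright members, with mean signals of 7.9 to 8.8, and Rps14 (10.12) and Rps20 (10.03) were among the 26 brightest. Of all features, 39.7% were called higher and 1.49% lower in that fit, and the median over all features was 0.48, above the value of Rpl5. Against 0 h, the dim Rpl3l was called higher at 96 h, where 23.5% of features were higher and 0.877% lower. Rpl10l also passed there, but with no 0 h array well above background its size is only a bound. No member was called at 48 h against 0 h (limma), where 3.74% were higher and 11.8% lower.

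Rpl11 and Rpl5, the partners of 5S ribosomal RNA, are given side by side. Rpl11 read 10.05, 9.93, 10.24 and 10.26 at 48 h, against 9.73, 9.60, 9.88 and 9.65 at 0 h (0.40 ± 0.13, adjusted p = 0.0517), with all 48 h arrays above all 0 h arrays. Rpl5 read 7.94, 7.86, 8.09 and 7.86 at 48 h, against 8.18, 7.80, 8.16 and 8.09 at 0 h (−0.12 ± 0.11, adjusted p = 0.465), with overlap. Rpl5 was negative in all 7 scalings at 48 h against 0 h and called lower in 2 of them, while Rpl11 was positive in 6 and called higher in 1. The difference between the 2 genes was not tested. Rpl11 was called lower at 96 h against 48 h (−0.50 ± 0.14, adjusted p = 0.0439) at the 75th percentile scaling and higher (0.22, adjusted p = 0.0288) with normexp and quantile normalization.

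In the acidic stalk, 3 of 4 members (Rplp0, Rplp2 and Rpl12) were called lower at 96 h against 48 h at the 75th percentile scaling and were positive in 3 of 7 scalings. Rplp1 missed the threshold there (−0.39 ± 0.13, adjusted p = 0.0841). Of 9 proteins at the peptide exit tunnel, 2 were called lower in this comparison, Rpl35 and Rpl4. Of 20 genes mutated in Diamond-Blackfan anaemia, 8 were called lower at the same scaling. Beside these 3 lists, 35 of all 79 members and 5.95% of all features were called lower there. None of the 20 anaemia genes was called at 48 h or 96 h against 0 h at the 75th percentile scaling. At an unadjusted p under 0.05 (limma), 4 and 7 of them passed, where 34.7% and 28.5% of all features did. Under other scalings some of the 20 were called, in both directions at each time.

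Tissue-restricted paralogs were dim. Rpl3l, the striated muscle form of Rpl3, read −2.62, −2.40 and −1.93 at 96 h and −2.51, −2.46, −2.63 and −2.25 at 48 h, against −2.67, −3.52, −3.47 and −2.74 at 0 h. Every 96 h and 48 h array lay above every 0 h array. It was positive in all 7 scalings at both times against 0 h but not called at the 75th percentile scaling (0.78 ± 0.24 at 96 h, adjusted p = 0.0696; 0.63 ± 0.23 at 48 h, adjusted p = 0.077). Rpl10l, the testis form of Rpl10, had probes that disagreed. Its brighter probe A_55_P2027995 was well above background on 2 of 3 arrays at 96 h, 1 of 4 at 48 h and 0 of 4 at 0 h, whereas A_55_P2088550 was so on 1 of 3 at 96 h, 0 of 4 at 48 h and 2 of 4 at 0 h, so no size is given. Rpl39l was well above background on 0 of 11 arrays and Rps4l on 2 of 11, so neither was tested.

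Of 7 ribosomal protein genes whose symbols fall outside the naming rule, 3 were called lower at 96 h against 48 h. The share over all features was 5.95%. Rack1, a scaffold on the small subunit (−0.67 ± 0.14, adjusted p = 0.0166), was called lower at the 75th percentile scaling. So was Fau, which encodes RPS30 fused to a ubiquitin-like protein (−0.60 ± 0.14, adjusted p = 0.0254). Both were positive with spike-in scaling. Fau was also positive with quantile normalization (0.10), and called higher with normexp correction and quantile normalization (0.25, adjusted p = 0.0305, limma). Rpl22l1, the paralog of Rpl22, read 7.75, 7.63, 7.94 and 7.92 at 48 h, against 8.19, 7.84, 8.35 and 8.18 at 0 h (−0.33 ± 0.13, adjusted p = 0.108). Its groups overlapped, and it was negative at 48 h against 0 h in all 7 scalings and called lower in 4. Mitochondrial ribosomal proteins, which serve the separate ribosomes of that organelle, had a median of −0.10 at 96 h against 48 h. In that comparison 0 were higher and 1 lower of 77 tested (5.17% and 5.95% of all features). At 48 h against 0 h, 11 were higher and 8 lower (10.5% and 8.03%). For 96 h over 0 h, 3 were higher and 6 lower (6.18% and 3.38%).

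Counts in the wider lists of the translation machinery stand beside 10.5% of all features called higher and 8.03% lower at 48 h against 0 h, and 5.17% higher and 5.95% lower at 96 h against 48 h. Of 39 translation initiation factors, 9 were called lower and 0 higher at 48 h against 0 h. Eif3a fell (−0.62 ± 0.16, adjusted p = 0.0236), as did Eif2s2, the beta subunit of the factor that brings the initiator tRNA (−0.56 ± 0.13, adjusted p = 0.0178), and both were called lower in all 7 scalings. Among 10 elongation factors and their enzymes, 2 were called higher and 3 lower, with Eef2k, the kinase that inhibits elongation factor 2, at −1.11 ± 0.17 (adjusted p = 0.00417) and called lower in all 7 scalings. Eef2k was called higher at 96 h against 48 h (0.85 ± 0.19, adjusted p = 0.0197), positive in all 7 scalings.

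Of 23 regulators in the mTORC1 and TOP message list, 1 was called higher and 3 lower at 48 h against 0 h. Mlst8, a subunit of the mTOR complexes, averaged 2.5 at 48 h, against 3.90 at 0 h (−1.40 ± 0.16, adjusted p = 0.00179), without overlap. Eif4ebp1, the inhibitor of cap binding that mTORC1 phosphorylates, also fell (−0.45 ± 0.10, adjusted p = 0.0142), and both were called lower in all 7 scalings. Pdcd4, an inhibitor of the helicase eIF4A, was called higher (0.79 ± 0.14, adjusted p = 0.00693) in 5 of 7. In the comparison of 96 h with 48 h, 4 were called higher and 1 lower, with Mtor at 0.66 ± 0.12 (adjusted p = 0.00911) and Larp1 at 0.55 ± 0.14 (adjusted p = 0.0323), both positive in all 7 scalings. Of 10 other messages with a TOP tract, 0 were called at 48 h or 96 h against 0 h. At an unadjusted p under 0.05 (limma), 2 and 5 passed, where 34.7% and 28.5% of all features did. Eef1a1 (−0.47) and Tpt1 (−0.46) were lower at 96 h against 48 h, with the sign turned in at least the spike-in scaling.

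Among 19 chaperones and importers of ribosomal proteins, 3 were called lower and 0 higher at 48 h against 0 h. Pdcd2, whose human form is a chaperone of RPS2, stood at −0.87 ± 0.14 (adjusted p = 0.00536), Zfp622, which acts in maturation of the large subunit, at −0.45 ± 0.11 (adjusted p = 0.0218), and Pdcd2l at −0.43 ± 0.10 (adjusted p = 0.0192), each called lower in all 7 scalings. Of 11 candidate transcription factors of these genes, 5 were called lower and 0 higher at 48 h. Gabpb1, the partner of the ETS factor GABPA, fell (−0.64 ± 0.12, adjusted p = 0.0071), Sp1 fell (−0.48 ± 0.14, adjusted p = 0.034) and Myc fell with overlapping groups (−0.73 ± 0.19, adjusted p = 0.0274), all 3 called lower in all 7 scalings.

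Of 10 genes of the p53 and nucleolar stress list, 2 were called higher and 1 lower at 48 h against 0 h. Phlda3 (1.0 ± 0.18, adjusted p = 0.00719) and Mdm4 (0.77 ± 0.18, adjusted p = 0.0167) were higher, each called in 5 of 7 scalings and positive in all, and Sesn2 was lower (−0.63 ± 0.11, adjusted p = 0.00626) in all 7. Mdm4 (−1.23), Phlda3 (−1.06) and Cdkn1a (−0.69) were called lower at 96 h against 48 h, negative in 6 of 7 scalings. In the list for stalled ribosomes, 2 of 13 genes were called lower at 48 h against 0 h, among them Zfp598, the ligase that marks collided ribosomes (−0.75 ± 0.13, adjusted p = 0.00667). Between 96 h and 48 h, 3 were called higher at 96 h, namely Ltn1 (0.79), Eif2ak4 (0.72) and Nemf (0.66), each positive in all 7 scalings.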

How the data were processed

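The deposited spot intensity is the processed signal of Agilent Feature Extraction 11.0.1.1, background-subtracted and detrended within each array but not normalized between arrays, per the file headers. A table of log2 values was also deposited by the authors. Control and outlier-flagged spots were dropped, spots of a probe averaged, and each array's 75th percentile subtracted after log2. A probe was kept if it was well above background on 3 or more arrays (34270 of 55681), and the brightest probe stood for a gene. limma 3.58.1 in R 4.3.3 fitted all 11 arrays in 3 groups (8 residual degrees of freedom), and was tested on simulated data. The number of arrays limits the precision. Alternatives covered scaling, background correction, dim-probe filters, blocks, slide row, array weights and leaving out arrays.

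The text names Rplp0, Rps6, up to 10 called members per direction, all 5S, stalk, paralog and outside-rule genes, and the top 3 called genes of other lists. Some genes that this rule names are not reported here. The members, lists and rule were chosen with earlier results of these data known. Cyclic loess, spike-in scaling and family centring were added after seeing the data. Title numbers paired the 48 h and 0 h arrays (correlation of deviations 0.28, 0.16, 0.20 and 0.14), and file-name numbers all 3 times (0.12 to 0.36). Title numbers did not pair the 96 h arrays (−0.04 to 0.36). The file-name number equals the array's column on its slide throughout, as the title number does at 0 h and 48 h. A shared line and a shared slide column therefore cannot be told apart. Nothing states that arrays of a group came from separate cultures, although the design text names 4 lines; p-values measure the spread between these arrays.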

Additional observations from a re-analysis of the deposited data

Results flagged for a closer look

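In 3 of 56 checks on groups of 4 arrays, 1 array of a named gene lay so far from the rest that its gap to the nearest array, as a share of the group's range, passed Dixon's critical value, and chance flags about 1 in 20 groups. Rpl37a read 10.18 in 0 h replicate 3, against 9.89 in the other 0 h arrays. Rpl41 read 9.98 in 48 h replicate 2, against 10.26 to 10.28 in the other 48 h arrays. Rps27l read 7.69 in 48 h replicate 2, against 7.98 to 8.03 in the other 48 h arrays. Of these 3 genes, all were called higher at 48 h against 0 h without 48 h replicate 2, and none without 48 h replicate 1 or without 48 h replicate 4 (limma).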

How the results depend on the processing

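At 96 h against 48 h the direction of the family turned with the scaling, and the cause was not tested. Counts of called members are given as in the report, where the shares of all features stand beside them. Normexp correction with quantile normalization, and equally the deposited table, gave 1 higher and 10 lower at 48 h against 0 h, 5 higher for 96 h over 0 h, and 22 higher and 0 lower for 96 h over 48 h, with member medians less those of all features of −0.11, 0.04 and 0.13. Quantile normalization gave 0 higher and 1 lower at 48 h against 0 h, and 2 higher and 0 lower at 96 h against 48 h, with median differences of −0.09, 0.00 and 0.06. Spike-in scaling gave 0 higher and 13 lower at 48 h against 0 h, 68 higher for 96 h over 0 h, and 79 higher and 0 lower at 96 h against 48 h. Cyclic loess gave 1 higher and 1 lower at 48 h against 0 h, and 1 higher and 2 lower at 96 h against 48 h, with median differences of −0.08, −0.12 and −0.07.

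Differences at 96 h against 48 h that turned positive under normexp and quantile normalization or the deposited table were Fau 0.25, Rpl11 0.22, Rpl12 0.11, Rpl35 0.28, Rpl37a 0.24, Rpl41 0.18, Rpl9 0.18, Rplp0 0.16, Rplp2 0.12 and Rps14 0.15. Under quantile normalization they were Fau 0.10, Rpl11 0.11, Rpl12 0.05, Rpl35 0.06, Rpl37a 0.06, Rpl41 0.02, Rpl9 0.03, Rplp0 0.01 and Rplp2 0.06. Under spike-in scaling they were Fau 0.80, Rack1 0.73, Rpl11 0.90, Rpl12 0.92, Rpl35 0.80, Rpl37a 0.81, Rpl41 0.80, Rpl6 0.80, Rpl8 0.79, Rpl9 0.79, Rplp0 0.75, Rplp2 0.83, Rps14 0.68, Rps20 0.63, Rps24 0.72 and Rps27l 1.02, and at 48 h against 0 h the reversed values were Rpl37a −0.19, Rpl41 −0.19 and Rps27l −0.13. Centred on the family, Rps27l stood at 0.06 at 96 h against 48 h.

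Other choices moved counts without turning them. The member median at 48 h against 0 h did turn under median scaling, from 0.17 to −0.06. Median scaling gave 0 higher at 48 h against 0 h (1.69% of all features), 8 lower for 96 h over 0 h (9.28%) and 2 lower for 96 h over 48 h (3.04%). The percentile over probes detected on all arrays gave 14 higher at 48 h (14.5%) and 1 lower at 96 h (3.34%) against 0 h. Probes above background on all 11 arrays gave 7 of 78 higher at 48 h, and 1 higher and 1 lower at 96 h, against 0 h. Of the 19671 features in that fit, 2977 were higher at 48 h, and 1718 higher and 1169 lower at 96 h. No filter on dim probes gave 1 higher at 48 h against 0 h and 13 lower at 96 h against 48 h, beside 1495 higher and 765 lower of 36984 features. The mean of a gene's probes gave 1 lower for 96 h over 0 h and 20 lower for 96 h over 48 h (794 and 1174 of 25079 features). Fitting only the groups compared gave 19 lower at 96 h against 48 h (1085 features), and array weights gave 1 lower at 96 h against 0 h (1286 features). The replicate block by title number gave 1 higher at 48 h against 0 h (9.15% of all features) and 7 lower at 96 h against 48 h (3.29%). The block by file-name number gave 7 higher at 48 h (12.2%) and 20 lower at 96 h (5.45%) against 0 h.

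Leaving out 1 array at a time, 0 to 6 members were higher and 0 to 0 lower at 48 h against 0 h. For 96 h over 0 h, 0 to 1 were higher and 0 to 4 lower, and for 96 h over 48 h, 4 to 40 were lower. The count of 4 was without 96 h replicate 1 (586 of 25079 features lower) and that of 40 without 96 h replicate 2 (1166). The 48 h count was 6 without 48 h replicate 2 (2079 features higher). It was 1 without 0 h replicate 1 or 4 or 48 h replicate 3 (1607, 1650 and 2221), and 0 without 48 h replicate 1 or 4 (1591 and 1392, limma). Without 0 h replicate 2, 4 were lower for 96 h over 0 h (1335 features). The median differences ran from 0.00 to 0.11, from −0.45 to −0.26 and from −0.55 to −0.34.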
